A study of Mus musculus with 24 samples.

Results

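The genes described here are a set of heat shock chaperones and the factor that governs them: Hsf1, Hsp90aa1, Hsp90ab1, Hspa8, Hspa1b, Hsph1, Dnajb1, Dnaja1, Hspb1 and Bag3. A gene was taken as measured where the platform annotation gave a probe set its symbol and no other. By this rule 7 of the 10 genes were measured, on 13 of the 35556 probe sets, among 19938 genes with such a probe set. They are Hsp90aa1 and Hspa8 with 3 probe sets each, Dnaja1 and Hspb1 with 2 each, and Hsph1, Dnajb1 and Bag3 with 1 each. Hspa1b was named only together with Hspa1a, a near-identical gene, on 1 probe set, so neither copy can be read from it. No probe set is named for Hsf1 or Hsp90ab1 in the annotation used here, and these 3 genes are not analysed further. Hspa8 and Dnaja1 have a further 2 and 1 probe sets that the annotation gives to several genes, which were not used here.

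The study asked how loss of 8-oxoguanine DNA glycosylase (OGG1), a base excision repair enzyme that removes oxidized guanine from DNA, alters liver metabolism. Livers of 24 male C57BL6 mice were hybridised, 1 mouse to an array and 6 mice to a group. The 4 groups were wild-type (WT) mice on chow, Ogg1-/- mice on chow, WT mice on a high-fat diet (HFD) and Ogg1-/- mice on the HFD. According to the labels the mice were 10 weeks old when they were housed singly, and ate one of the diets freely for 10 weeks. The study's text gives a somewhat older starting age. The Ogg1-/- mice carry the deletion in all cells, so that an effect of the liver itself and of other organs cannot be told apart. Whole liver was used, and in such tissue fewer cells of a type cannot be told apart from less RNA per cell.

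Heat shock proteins hold unfolded polypeptides and pass them on for folding or degradation. HSF1 is the transcription factor that binds inverted repeats of the bases GAA, called heat shock elements, and switches these genes on when proteins misfold. HSP70 proteins such as HSPA8 work in cycles with J-domain partners (DNAJA1, DNAJB1), with nucleotide exchange factors (HSPH1, BAG3) and with HSP90, while small heat shock proteins such as HSPB1 bind aggregating proteins without using ATP.

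Promoter sequences from RefSeq on mouse build GRCm38.p6, each from 250 bases before to 50 bases after an annotated start, were at hand for 5 of the 7 measured genes (9 windows). They are shown because the heat shock element is what these genes are known to share, and the rule that chose them did not use it. The windows were searched on both strands for the head-to-head pair GAANNTTC, the tail-to-tail pair TTCNNGAA and 3 alternating units, GAANNTTCNNGAA or its reverse complement, which holds 1 pair of each kind. Capitals mark the matched letters in the lines that follow, and negative positions lie before the start, each written 5′ to 3′ on the gene's strand.
Hsph1, 3 units from base 16 relative to the later of its starts, chr5:149636280-149636308, minus strand: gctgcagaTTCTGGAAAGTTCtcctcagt
Hsph1, pair from base -54 relative to the same start, chr5:149636351-149636380, minus strand: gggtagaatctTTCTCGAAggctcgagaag
Dnaja1, pair from base -124 relative to its first start, chr4:40722333-40722362, plus strand: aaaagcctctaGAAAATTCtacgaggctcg
Hspb1, pair from base -117 relative to the start, chr5:135887791-135887820, plus strand: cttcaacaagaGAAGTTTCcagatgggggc
Hspb1, pair from base -97 relative to the start, chr5:135887811-135887840, plus strand: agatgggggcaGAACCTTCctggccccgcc
Bag3, pair from base 43 relative to the start, chr7:128523614-128523632, plus strand, at the end of the window: ggatgggaccaGAAGTTTC
A pair was thus found in 4 of the 5 genes, Hsph1, Dnaja1, Hspb1 and Bag3, in Dnaja1 in only 1 of its 3 windows. Of all 32851 promoter windows, 7.86% held the head-to-head pair, 8.52% the tail-to-tail pair and 15.1% either of them, while 3 units were found in 0.603% and, among the measured genes, in Hsph1 alone. These shares are by window, while the count of 4 is by gene, over 1 to 3 windows each. The count and the shares are therefore not like measures. The 2 windows of Dnajb1 held none of these letters, which says nothing of sites that lie elsewhere or differ by a base. The lines are a description of the letters present, not of binding.

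Signals are log2 values after robust multiarray averaging (RMA), so a difference of 1 is a 2-fold difference, and levels of different genes are not compared. Groups were compared with limma in 1 fit of the 4 groups, and a probe set passed at a p adjusted over all 35556 probe sets (Benjamini-Hochberg) of under 0.05. Where a gene has several probe sets, the one that is brightest on average stands for it. The targeted gene, Ogg1, lay between 6.26 and 6.57 in the 12 WT arrays and between 5.70 and 6.03 in the 12 Ogg1-/- arrays, so that no array overlapped with the other genotype. Its difference was -0.54 on chow and -0.59 on the HFD (limma, adjusted p = 3.22e-05 and 2.89e-05); whether the probe set lies in the deleted part of the gene was not determined. As a check of the tissue label, the summed signal of 5 hepatocyte markers (Alb, Apoa1, Ttr, Cps1 and Tat) had a log2 of 16.0 to 16.3 in every array. The brightest genes weigh most in such a sum and no other tissue was set beside it. It therefore does not measure the share of hepatocytes.

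The array of Ogg1-/- chow replicate 1 stood apart. A score was computed for every array on the leading axis along which livers of 1 chow group differ from each other, over all probe sets. This array scored 80.9, against -42.1 to 7.74 for the other 5 of its group and -46.1 to -6.5 for WT on chow. The axis was computed from the chow arrays, this one among them. An array far from its group helps to set such an axis, so the score is not separate evidence that it stood apart. On the HFD all 6 Ogg1-/- arrays, at 18.5 to 54.8, scored above all 6 WT arrays, at -20.7 to 10.4. The chaperone genes moved with this score, and values without the array or with the score as a covariate stand beside the results that they change.

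**Figure D1:**
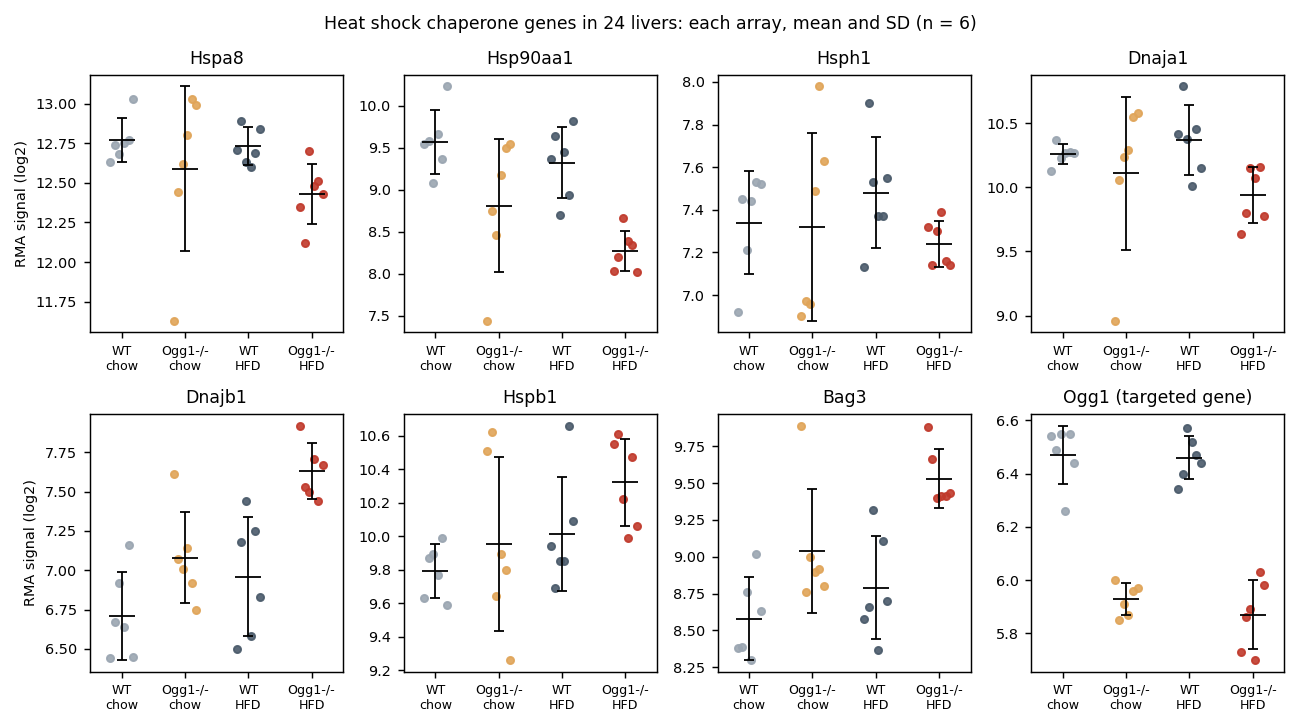
RMA signal (log2, vertical axes, each with its own range) of the 7 measured heat shock chaperone genes and of Ogg1 in the 4 groups. Each point is 1 liver, and the bar and whiskers are the mean and SD of 6 livers. On the HFD the Ogg1-/- points of Hsp90aa1 lie below, and those of Dnajb1 and Bag3 above, all WT points.

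On the HFD, the Ogg1-/- livers differed from WT in 3 of the 7 genes. Hsp90aa1, the stress-inducible cytosolic HSP90, was 2.06-fold lower. Dnajb1, the HSP40 that feeds substrates to HSP70, and Bag3, a co-chaperone of HSP70 that directs clients to autophagy, were 1.59-fold and 1.67-fold higher. Thus 2 of 7 genes passed as higher and 1 of 7 as lower, where 10.3% of all probe sets were higher and 9.55% lower in this comparison. All 3 also exceeded a fold of 1.5, as did 1.09% of all probe sets in the higher and 4.8% in the lower direction. The median log2 difference of the 7 genes was -0.24, against 0.02 over all probe sets.

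HSP90 clients include steroid receptors and kinases, and Hsp90aa1 encodes its inducible cytosolic form. Its signal on the HFD ran from 8.70 through a median of 9.41 to 9.82 in WT livers. In Ogg1-/- livers it ran from 8.02 through 8.27 to 8.66. The brightest Ogg1-/- liver thus lay just under the dimmest WT liver. The log2 difference was -1.05 ± 0.27 (SE, n = 6 per group; limma, adjusted p = 0.0101). The 2 other probe sets of the gene gave -1.02 and -0.99 (adjusted p = 0.00807 and 0.00844). On the first of these the groups overlapped, with 5 of 6 Ogg1-/- livers under every WT liver, and on the second they did not. Probe sets on near-identical copies of the gene would share signal, and this was not examined.

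Neither Hspa8 nor Hsph1 passed in this comparison. Hspa8, the constitutive cytosolic HSP70, ran from 12.60 through a median of 12.70 to 12.89 in WT and from 12.12 through 12.46 to 12.70 in Ogg1-/- livers on the HFD. Of the 6 Ogg1-/- livers, 5 lay under all WT livers. The difference was -0.29, with a 95% interval of -0.62 to 0.04 (limma, adjusted p = 0.22), and the 2 other probe sets gave -0.26 and -0.28. Hsph1, the HSP110 that exchanges nucleotide on HSP70, ran from 7.13 through 7.45 to 7.90 in WT and from 7.14 through 7.23 to 7.39 in Ogg1-/- livers. The Ogg1-/- values lay within the WT range, and the difference was -0.24 (95% interval -0.56 to 0.09, limma, adjusted p = 0.339).

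The J-domain proteins went separate ways. Dnajb1 ran from 6.5 through a median of 7.0 to 7.44 in WT livers on the HFD. In Ogg1-/- livers it ran from 7.44 through 7.60 to 7.92. At 2 decimals the brightest WT liver and the dimmest Ogg1-/- liver both read 7.44, and the Ogg1-/- liver was the brighter. The difference was 0.66 ± 0.16 (SE, n = 6 per group; limma, adjusted p = 0.00698). Dnaja1, a type of HSP40 with a farnesylated tail, had values of 10.01, 10.40 and 10.79 (lowest, median and highest) in WT and of 9.64, 9.94 and 10.16 in Ogg1-/- livers. It did not pass, with a difference of -0.43 (95% interval -0.82 to -0.04, limma, adjusted p = 0.118), and 3 of 6 Ogg1-/- livers lay under all WT livers. Its second probe set gave -0.32 (adjusted p = 0.184).

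Bag3 carries a domain that opens the nucleotide pocket of HSP70. Its signal on the HFD ran from 8.37 through a median of 8.68 to 9.32 in WT and from 9.40 through 9.42 to 9.88 in Ogg1-/- livers. All 6 Ogg1-/- livers lay above all WT livers, 4 of them close together between 9.40 and 9.43. The difference was 0.74 ± 0.18 (SE, n = 6 per group; limma, adjusted p = 0.00657). Hspb1, a small heat shock protein that holds unfolding proteins, ran from 9.69 through 9.89 to 10.66 in WT and from 9.99 through 10.34 to 10.61 in Ogg1-/- livers. Its ranges overlapped, and the difference of 0.30 did not pass (95% interval -0.09 to 0.69, limma, adjusted p = 0.297), with 0.30 on its second probe set too.

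Leaving out Ogg1-/- chow replicate 1, which is in neither group but enters the shared spread, raised the count on the HFD from 3 to 5 of 7, with Hspa8 at -0.29 and Dnaja1 at -0.43 then also lower (limma, adjusted p = 0.0344 and 0.00835). The share of all probe sets that passed rose in that fit as well, to 13.8% higher and 12.1% lower. With the axis score as a covariate none of the 7 passed, and the differences shrank to -0.32 for Hsp90aa1, 0.35 for Dnajb1 and 0.35 for Bag3 (limma, adjusted p = 0.23, 0.189 and 0.18). In the same fit the share of all probe sets that passed fell to 1.33% higher and 1.38% lower. Hsp90aa1, Dnajb1 and Bag3 passed in each of the other 33 of 34 alternative settings.

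**Figure D2:**
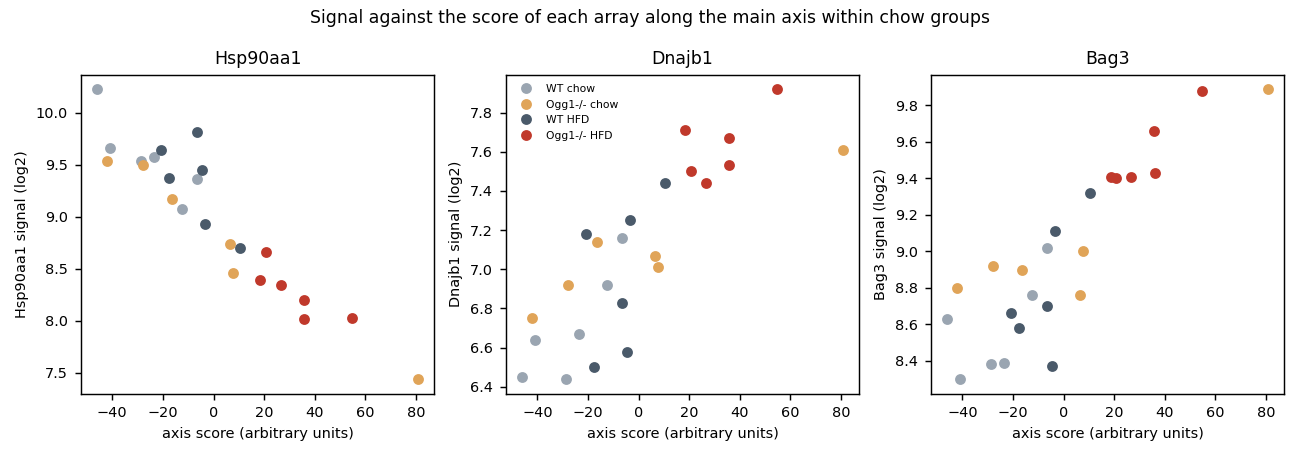
Log2 signal of Hsp90aa1, Dnajb1 and Bag3 (vertical axes) against the score of each array on the leading within-group axis of the chow livers (horizontal, arbitrary units), 1 point per liver. Hsp90aa1 falls and Dnajb1 and Bag3 rise along the score, and the Ogg1-/- HFD livers lie at 18.5 to 54.8, beyond the WT HFD livers.

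Within groups, the deviation of each gene from its group mean followed the score as well. Over the 24 livers Pearson's r with the score was -0.90 for Hsp90aa1, -0.89 for Hspa8, -0.86 for Dnaja1 and -0.55 for Hsph1, and 0.76 for Bag3, 0.67 for Dnajb1 and 0.62 for Hspb1. Without Ogg1-/- chow replicate 1 these were -0.83, -0.71, -0.61 and -0.46, and 0.54, 0.58 and 0.55. These are descriptions, since the score was computed from the same arrays and the members are among its probe sets.

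Markers of other liver cells also differed between the genotypes on the HFD. Of 5 markers of sinusoidal endothelium, 4 were lower in Ogg1-/- livers (Stab2, Kdr, Clec4g and Pecam1, log2 differences of -0.48 to -0.60). The log2 of the summed signal of all 5, in which the brightest marker weighs most, was 11.2 to 11.5 against 11.8 to 12.0 in WT. With the axis score as a covariate 0 of the 5 passed, with a median of -0.29. Of 5 Kupffer cell and macrophage markers 2 were lower and 1 was higher, and the log2 of their summed signal was 11.3 to 11.5 against 11.4 to 11.8. Of 5 stellate cell markers 1, Lrat, was lower, and of 5 lymphocyte markers 1 was higher and 1 lower. No hepatocyte marker (of 5) or measured cholangiocyte marker (of 4) passed (limma). These counts stand beside the 10.3% of all probe sets that were higher and the 9.55% that were lower. The part of these cells in the chaperone differences was not tested.

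Immediate early genes and clock genes were read beside the chaperones, since handling and hour of day change them. None of 8 immediate early genes (Fos, Fosb, Jun, Junb, Egr1, Atf3, Ier2 and Dusp1) passed between the genotypes on either diet (limma). Of 5 clock genes, 4 were higher and 1 lower in Ogg1-/- livers on both diets. These 5 were chosen with earlier results of these data known, and the study lists Per1, Dbp and Arntl as changed on chow. Their count is a description, not a test. Of all probe sets, 0.242% were higher and 0.236% lower on chow, and 10.3% and 9.55% on the HFD. Ciart, a repressor of the clock, differed by 2.68 on chow and by 2.53 on the HFD. Between the diets in Ogg1-/- livers, 1 of the 8 immediate early genes was higher on the HFD, Dusp1, a phosphatase of MAP kinases, at 0.76 (limma, adjusted p = 0.0293). In that comparison 3 of the 5 clock genes (Per1, Per2 and Ciart) were higher and 3 of the 5 endothelial markers (Stab2, Kdr and Clec4g) lower. Of all probe sets 4.58% were higher and 4.94% lower there. In WT livers too, 3 of the 5 clock genes were higher on the HFD and 1 was lower. The shares of all probe sets in WT were 0.532% and 0.394%. Whether the clock or immediate early gene differences bear on the chaperones was not tested.

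On chow, no gene of the 7 passed between the genotypes (limma), where 0.242% of all probe sets were higher and 0.236% lower (0.174% and 0.152% without Ogg1-/- chow replicate 1). At an unadjusted p under 0.05 the count was 3 with limma and 1 with the methods' t-test. The shares of all probe sets above are at an adjusted p. Shares at an unadjusted p are not given here for any comparison. Counts of genes at an unadjusted p are thus not set against all probe sets. Hsp90aa1 ran from 9.08 through a median of 9.56 to 10.23 in WT and from 7.44 through 8.95 to 9.54 in Ogg1-/- livers. The lowest value was that of Ogg1-/- chow replicate 1. The difference was -0.77 (95% interval -1.33 to -0.20, limma, adjusted p = 0.169), and -0.49 without that array (adjusted p = 0.403). Bag3 differed by 0.46 (95% interval 0.10 to 0.83, limma, adjusted p = 0.188) and Dnajb1 by 0.37 (0.03 to 0.70, adjusted p = 0.236), or by 0.29 and 0.26 without it. Of these genes, Bag3 ran from 8.30 through 8.51 to 9.02 in WT and from 8.76 through 8.91 to 9.89 in Ogg1-/- livers.

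The other 4 genes on chow had differences between -0.18 and 0.16. Hspa8 read 11.63 in the array that stood apart and 12.44 to 13.03 in the other 5 Ogg1-/- livers, against 12.63 to 13.03 in WT. Dnaja1 read 8.96 there and 10.06 to 10.58 in the other 5, against 10.13 to 10.37 in WT. Without that array the difference of Hspa8 went from -0.18 to 0.01 and that of Dnaja1 from -0.15 to 0.08, so their sign on chow rested on 1 liver. Hspb1, at 0.16, and Hsph1, at -0.02, had intervals of -0.23 to 0.55 and -0.35 to 0.30.

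**Figure D3:**
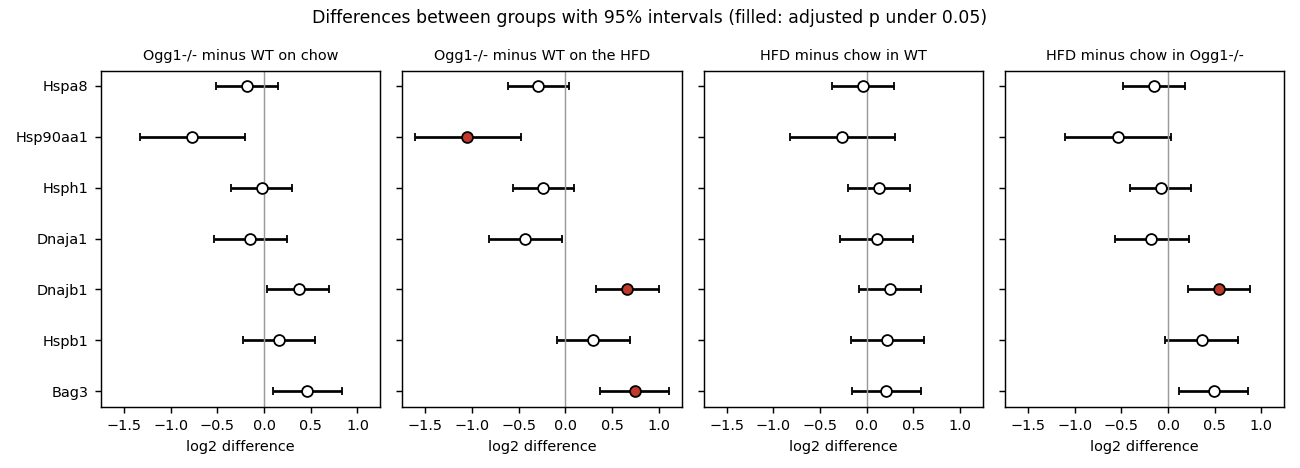
Log2 differences of the 7 genes (rows) with 95% intervals from limma in the 4 comparisons, 6 livers per group. Filled points passed at an adjusted p under 0.05: Hsp90aa1, Dnajb1 and Bag3 between genotypes on the HFD, and Dnajb1 between diets in Ogg1-/- livers.

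In WT livers the HFD changed none of the 7 genes (limma; 0 at an unadjusted p under 0.05 too, and 0 with the methods' t-test), with 0.532% of all probe sets higher and 0.394% lower. Without Ogg1-/- chow replicate 1, which enters this comparison only through the shared spread, these shares were 1.05% and 0.849%. Differences ran from -0.26 for Hsp90aa1 (95% interval -0.82 to 0.30) to 0.25 for Dnajb1 (-0.08 to 0.58). In Ogg1-/- livers Dnajb1 alone passed, and 4.58% of all probe sets were higher and 4.94% lower. Dnajb1 ran from 6.75 through a median of 7.04 to 7.61 on chow and from 7.44 through 7.60 to 7.92 on the HFD, and 3 of the 6 HFD livers lay above every chow liver. The difference was 0.55 ± 0.16 (SE, n = 6 per group; limma, adjusted p = 0.0346), a 1.46-fold rise. This call was close to the threshold. It was lost in 11 of 34 alternatives, among them the axis score, the methods' t-test and the loss of any of 9 single arrays (Ogg1-/- chow replicates 2 to 6 and Ogg1-/- HFD replicates 1, 2, 4 and 6), with adjusted p of 0.0532 to 0.235.

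Without Ogg1-/- chow replicate 1, 5 of the 7 genes passed between the diets in Ogg1-/- livers, as did 12.8% of all probe sets in the higher and 12.6% in the lower direction. Dnajb1 (0.65) and Bag3 (0.66) were then higher on the HFD, and Hsp90aa1 (-0.81), Dnaja1 (-0.41) and Hspa8 (-0.34) were lower (limma, adjusted p from 0.00209 to 0.019). With all 24 arrays the last 4 had differences of 0.49, -0.54, -0.18 and -0.15 and did not pass (adjusted p = 0.0809, 0.222, 0.615 and 0.601).

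The genotype difference was not shown to depend on diet for any of the genes. In the interaction 0 of 7 passed, and 0 at an unadjusted p under 0.05 (limma), while 0% of all probe sets were higher and 0.00281% lower. The interaction of Hsp90aa1 was -0.28 (95% interval -1.07 to 0.52), that of Dnajb1 0.30 (-0.17 to 0.77) and that of Bag3 0.28 (-0.24 to 0.80). Without Ogg1-/- chow replicate 1 still 0 of 7 passed, with -0.55 for Hsp90aa1, -0.51 for Dnaja1, 0.45 for Bag3 and 0.40 for Dnajb1 (limma, adjusted p = 0.376, 0.116, 0.267 and 0.359), while the shares of all probe sets rose to 0.394% higher and 1.12% lower. The genotype differences on chow and on the HFD had the same sign in each of the 7 genes with all arrays, but without that array Hspa8, Dnaja1 and Hsph1 were at 0.01, 0.08 and 0.06 on chow, against -0.29, -0.43 and -0.24 on the HFD. Comparisons that share a group of livers, such as the genotype and the diet comparison of the Ogg1-/- HFD livers, are not independent of each other.

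Apart from the group differences, the deviations of the genes from liver to liver were compared pair by pair. With group means removed, 17 of 21 pairs of genes were correlated by Pearson's r over the 24 livers (permutation test, two-sided, adjusted over the 21 pairs). Of these, 9 were positive and 8 negative, and r ran from -0.72 to 0.88 over the 21 pairs. Hsp90aa1, Hspa8, Dnaja1 and Hsph1 were positively correlated in all 6 of their pairs. Dnajb1, Bag3 and Hspb1 were positively correlated in all 3 of theirs, and the significant pairs between these 2 sets were negative. By rank the 6 pairs of the first set passed too. Hspb1 did not pass by rank with Dnajb1 or Bag3 (rho = 0.33 and 0.30, permutation test, adjusted p = 0.187 and 0.205). Nor did Hspa8 with Dnajb1 or Bag3, Dnaja1 with Hspb1 or Bag3, or Hsp90aa1 with Hspb1. The share of correlated pairs among all genes was not computed, so the count of 17 is not shown to be particular to these genes. Members of each set were read on the same arrays, so that anything shared by an array enters every pair. The same livers gave the score described above.

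Hsp90aa1 and Hspa8 had r = 0.87 and rho = 0.75 (permutation p = 1e-05, the smallest that 100000 resamples give, and 0.00012; adjusted 7e-05 and 0.00126), and r = 0.73 without the 2 livers farthest from the median of Hsp90aa1. Dnajb1 and Bag3 had r = 0.82 and rho = 0.66 (permutation p = 1e-05 and 0.00047; adjusted 7e-05 and 0.00247), and r = 0.73 without 2 livers. Hsp90aa1 and Dnajb1 had r = -0.68 and rho = -0.64 (permutation p = 0.00018 and 0.00095; adjusted 0.0007 and 0.00332), and r = -0.55 without 2 livers. Without the 2 farthest livers 11 pairs passed, and without Ogg1-/- chow replicate 1 there were 9, 6 positive and 3 negative. In those 23 livers the 3 pairs had r of 0.74, 0.78 and -0.58 and still passed (permutation p = 5e-05, 3e-05 and 0.00421; adjusted 0.000525, 0.000525 and 0.0162). Among the pairs that no longer passed was Dnaja1 with Hsp90aa1, where r fell from 0.70 to 0.36. Dnajb1 with Hspb1 (r from 0.43 to 0.31) and Bag3 with Hspb1 (r from 0.46 to 0.29) did not pass either. Without the 2 livers farthest from the median of Hspb1, Bag3 with Hspb1 had r = 0.60 (permutation test, adjusted p = 0.0164). These calls thus depended on which livers were included.

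**Figure D4:**
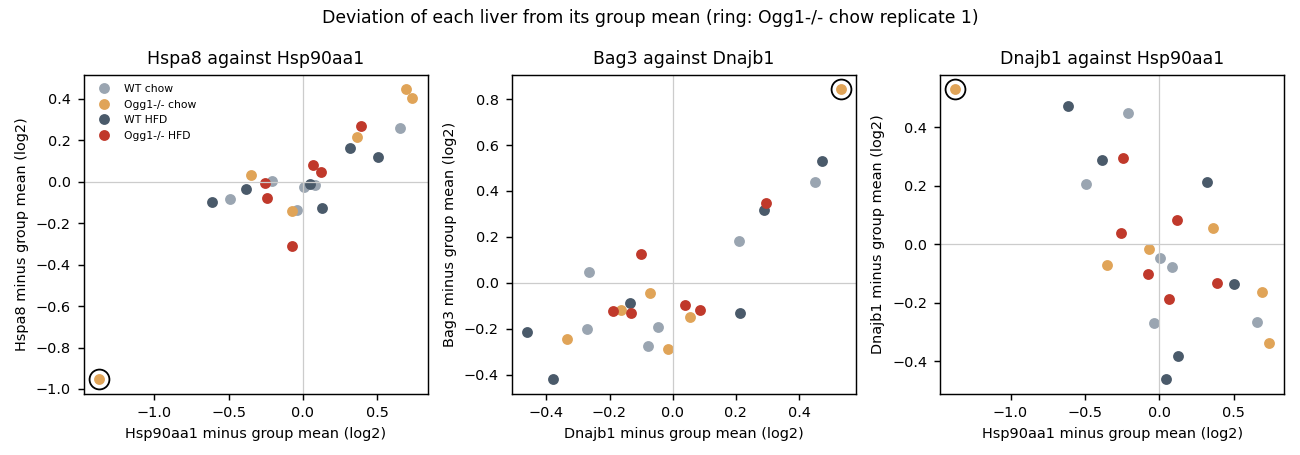
Deviation of each of the 24 livers from its group mean (log2) for Hspa8 against Hsp90aa1, Bag3 against Dnajb1 and Dnajb1 against Hsp90aa1. Pearson's r is 0.87, 0.82 and -0.68, and the ringed point, Ogg1-/- chow replicate 1, lies at the end of each cloud.

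By Pearson's r of the same deviations over 24 livers, among the 19938 genes, the 5 most like Dnajb1 were Kif1c (0.893), Prrc2a (0.892), Ipo13 (0.879), Dhrs11 (0.870) and Psenen (0.867). Those most like Hsp90aa1 were Nrd1 (0.961), Uggt1 (0.960), Abce1 (0.959), Mtrex (0.957) and Cald1 (0.956). Those most like Hspa8 were St13 (0.932), Etf1 (0.927), Kpna1 (0.924), Iars2 (0.919) and Ghr (0.918). St13 is a cochaperone that binds HSP70 itself, and it is the only one of these 15 in the chaperone lists described below.

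The wider chaperone network on the HFD held genes that passed in both directions. Of 6 other cytosolic HSP70 and HSP110 genes, 2 were lower in Ogg1-/- livers and 4 did not pass. Hspa4 and Hspa4l, both relatives of Hsph1, differed by -0.68 and -0.46 (limma, adjusted p = 0.0112 and 0.0163). Hspa1a, the stress-inducible HSP70, was at 0.19 on a probe set named for it alone (95% interval -0.08 to 0.45, adjusted p = 0.36), with the near-identical Hspa1b a possible source of signal there. Of 8 other cytosolic J-domain genes 3 were higher, 2 lower and 3 did not pass, with Dnajc7, a bridge between HSP70 and HSP90, at -0.60 (limma, adjusted p = 0.00255), Dnajb2 at 0.32 and Dnaja4 at 0.29. The median differences of these lists were -0.07 and -0.09, against 0.02 over all probe sets.

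Among the co-chaperones more genes passed as higher than as lower. Of 8 HSP70 co-chaperones 3 were higher, Hspbp1 (0.50), Bag6 (0.39) and the ubiquitin ligase Stub1 (0.38), and 5 did not pass (limma, adjusted p = 0.00522, 0.00678 and 0.014 for the 3). Of 12 measured HSP90 co-chaperones 5 were higher and 2 lower. Cdc37l1, a relative of the kinase co-chaperone Cdc37, was at -0.81 and Sugt1 at -0.55, while the immunophilin Fkbp4, which couples HSP90 to steroid receptors, was at 0.51 (limma, adjusted p = 0.00779, 0.0206 and 0.00331). Of 8 other small heat shock proteins 1 passed, Hspb8, which works in a complex with BAG3, at 0.59 (limma, adjusted p = 0.00731). Hspb3, Hspb7, Hspb9 and Cryaa had a mean log2 signal under 6 in every group, so a difference in them could be missed. The same held for Hspa1l and Dnajb6 of the lists above. The medians of the 3 lists were -0.05, 0.13 and 0.05.

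Of 4 other heat shock factors and regulators, 2 were higher. Hikeshi, which carries HSP70 into the nucleus, was at 0.50 and Hsf4, an HSF1 relative, at 0.40 (limma, adjusted p = 0.00394 and 0.0324). Hsf2 was at -0.62 and did not pass (95% interval -1.11 to -0.12, adjusted p = 0.0754). Of 6 mitochondrial chaperones 2 were higher and 1 lower, among them Hspe1, the small subunit of the mitochondrial chaperonin, at 0.65, and Hspa9, the mitochondrial HSP70, at -0.54 (limma, adjusted p = 0.000643 and 0.017). The medians were 0.25 and -0.10.

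The cytosolic chaperonin TRiC, which folds actin and tubulin, was lower in 7 of its 8 subunit genes, with a median of -0.68. Cct4 was at -0.88, Tcp1 at -0.80 and Cct3 at -0.70 (limma, adjusted p = 0.00669, 0.0108 and 0.00454), while Cct7 was at -0.01. Of 7 endoplasmic reticulum counterparts of the members 4 were lower and 1 higher, with a median of -0.36. Dnajc3 was at -1.25, Hsp90b1, the HSP90 of that compartment, at -1.11 and Hspa5, its HSP70, at -0.77, against 0.70 for Dnajb9 (limma, adjusted p = 0.00305, 0.0051, 0.00441 and 0.00419). These counts compare with 10.3% and 9.55% of all probe sets, and nothing particular to a list was tested. They were the same after centring of each array on its median, and after quantile normalization except for 1 more HSP70 co-chaperone lower and 1 fewer mitochondrial chaperone higher. Without Ogg1-/- chow replicate 1 the counts on the HFD were also the same, except that St13 (-0.45), Hsf2 (-0.62) and Trap1 (-0.22), the mitochondrial HSP90, passed as lower too (limma, adjusted p = 0.000252, 0.00616 and 0.0043).

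Most of these calls were lost with the axis score as a covariate, when 1.33% of all probe sets were higher and 1.38% lower. None of the 8 TRiC genes (median -0.22), the 6 HSP70 and HSP110 genes, the 8 HSP70 co-chaperones, the 8 small heat shock proteins or the 4 regulators then passed. In all, 4 genes of the chaperone lists passed: Dnajc3 at -0.54, Dnajc7 at -0.32, Hspe1 at 0.51 and Ahsa2, an HSP90 co-chaperone that had not passed before, at 0.39 (limma, adjusted p = 0.00654, 0.0366, 0.0109 and 0.0424). Fkbp4 was at 0.36 and no longer passed (limma, adjusted p = 0.0714). Since the score separated the genotypes on the HFD, a lost call does not tell a genotype difference from one along the score.

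**Figure D5:**
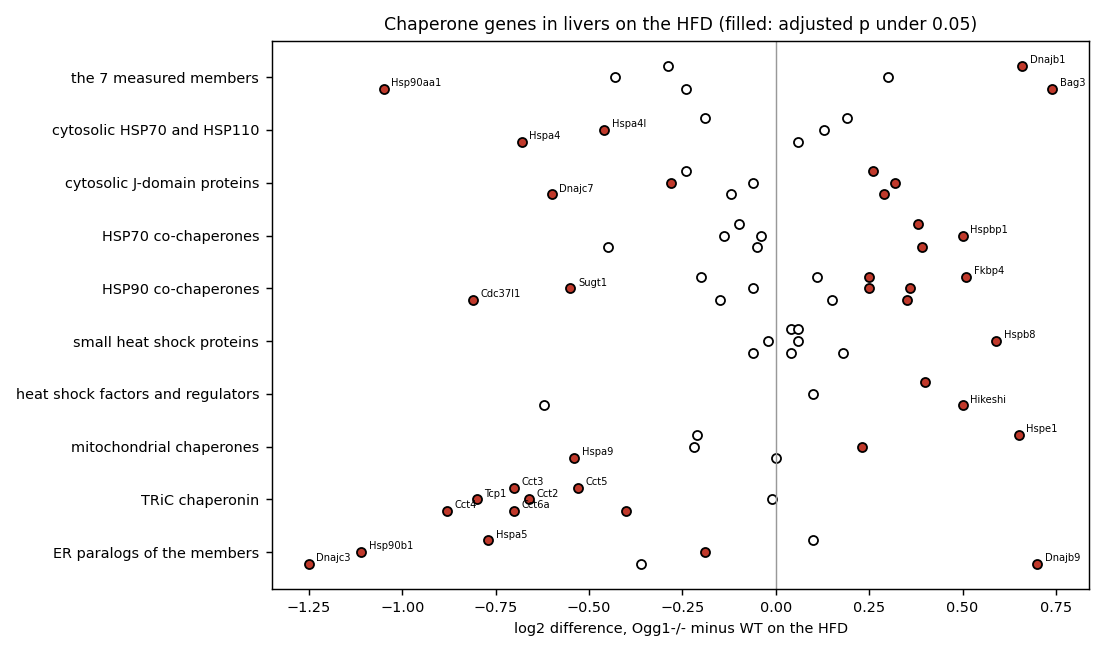
Log2 difference between Ogg1-/- and WT livers on the HFD (horizontal axis) for each measured gene of 10 lists of chaperone genes (rows), 6 livers per group. Filled points passed at an adjusted p under 0.05 and the larger differences among them carry the gene's name. TRiC subunits lie to the left except Cct7, and the other lists have points on both sides of 0.

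On chow no gene of these lists passed between the genotypes, and in WT livers none passed between the diets (limma). In Ogg1-/- livers the HFD raised 4 and lowered 1 of the 12 HSP90 co-chaperones, with Fkbp4 at 0.60 and Cdc37l1 at -0.71 (limma, adjusted p = 0.00145 and 0.0277). It lowered 2 of 8 TRiC genes, 2 of 7 endoplasmic reticulum counterparts and 1 of 8 J-domain genes, Dnajc7, at -0.59, and raised 1 of 4 regulators, Hikeshi, at 0.35, and 1 of 6 mitochondrial chaperones, Hspe1, at 0.49 (limma, adjusted p = 0.00393, 0.039 and 0.00425 for the 3 named). These counts stand beside 4.58% of all probe sets higher and 4.94% lower. Without Ogg1-/- chow replicate 1, when these shares were 12.8% and 12.6%, 7 of 8 TRiC genes were lower. In the same fit 1 of the endoplasmic reticulum counterparts was higher and 5 were lower, as were 2 and 3 J-domain genes, 4 and 3 HSP90 co-chaperones, 2 and 3 mitochondrial chaperones and 2 and 2 HSP70 co-chaperones. The regulators had 2 higher and 1 lower, the small heat shock proteins 2 higher, and the HSP70 and HSP110 genes 1 lower.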

How the data were processed

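Liver RNA of 24 male mice was hybridised to the Affymetrix Mouse Gene ST array, 6 arrays for each genotype and diet. The authors deposited log2 values per probe set, made by robust multiarray averaging (RMA) per the submitters' processing notes, which give no version. Values ran from 1.81 to 14.8, with array medians of 5.90 to 5.97. The number of arrays limits the precision. Array correlations ran from 0.952 to 0.993. No scan date or other batch was available in the files used here. Symbols came from the platform annotation (21789 probe sets with 1 symbol, 1621 with several, 12146 unnamed here). Of those with 1 symbol, 21698 were matched by Entrez identifier to a current symbol, which may be the same one.

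All 35556 probe sets were fitted with limma 3.58.1 in R 4.3.3 (lmFit, contrasts, eBayes), without filter, and p-values were adjusted by Benjamini-Hochberg. The fit was tested on simulated data. A gene was represented by its brightest probe set. Correlations of deviations from group means used permutation tests with 100000 resamples (SciPy 1.17.1, Python 3.11.15). Deviations were exchanged over all 4 groups, though their spread differed between groups. The SD of Dnaja1, for example, was 0.60 in Ogg1-/- and 0.08 in WT livers on chow. The permutation p-values are therefore approximate and may be too small. The axis score is the projection of each array on the first singular vector of the within-group deviations of the chow arrays. The alternatives were the 2 groups alone, the replicate number as a block, median centring, quantile normalization, a filter at a mean log2 value of 6, array weights, a trended robust prior, the methods' t-test, the mean over probe sets, the axis score as a covariate and each array left out. The removal of Ogg1-/- chow replicate 1 from the correlations was added after seeing the data.

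The members, the gene lists and the axis score were chosen with earlier results of these data known. All members are named. From each list up to 3 genes are named, those with the largest difference among those that passed or the one with the smallest p, with further genes of a list chosen after their values were seen. The replicate numbers of the labels did not pair the samples: the correlations of deviations over 36 same-numbered pairs ran from -0.27 to 0.43, with a median of -0.034. The labels call the arrays biological replicates.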

Additional observations from a re-analysis of the deposited data

Results flagged for a closer look

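Of 28 sets of 6 livers (7 genes in 4 groups), 3 held a liver far from the others by Dixon's test, which chance flags in about 1 set in 20. In WT on chow, replicate 6 read 13.03 for Hspa8, while the other 5 livers lay between 12.63 and 12.77. In Ogg1-/- on chow, replicate 1 read 8.96 for Dnaja1, while the other 5 lay between 10.06 and 10.58. The same liver read 9.89 for Bag3, while the other 5 lay between 8.76 and 9.0. The 2 flags in Ogg1-/- chow replicate 1 come from 1 array, the one with an axis score of 80.9, and its part in them was not tested.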

How the results depend on the processing

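On the HFD, 3 of 7 genes passed between the genotypes, 0 with the axis score as a covariate, 4 with the methods' t-test and 5 with the 2 groups compared alone. With single arrays left out the count was 3 to 5. With the axis score, Hsp90aa1 was at -0.32, Dnajb1 at 0.35 and Bag3 at 0.35, and the sign of 4 uncalled genes turned (Hspa8 0.12, Hsph1 0.02, Dnaja1 0.04 and Hspb1 -0.04). In Ogg1-/- livers, 1 gene passed between the diets, 3 with array weights, 2 with dim probe sets left out, 0 with the axis score, 0 with the methods' t-test, and 0 to 5 with single arrays left out. The shares of all probe sets with array weights, dim probe sets left out, the t-test, the 2 groups alone and most single arrays left out are not given here. Those counts are thus not set against all probe sets. With the axis score Hsp90aa1 (0.03), Hspa8 (0.17), Hsph1 (0.12) and Dnaja1 (0.19) turned there, and in WT Hsp90aa1 (0.10) and Hspa8 (0.16). On chow, Hspa8 (0.11), Hsph1 (0.15), Dnaja1 (0.19) and Hspb1 (-0.08) turned with the score, and Hspa8 (0.0), Hsph1 (0.10) and Dnaja1 (0.04) with array weights. No gene that turned had passed. With single arrays left out, Hspa8 on chow ran from -0.27 to 0.01, Hsph1 from -0.16 to 0.06 and Dnaja1 from -0.24 to 0.08, Hspa8 between diets in WT from -0.07 to 0.01, and Hsph1 between diets in Ogg1-/- from -0.16 to 0.05. By Pearson's r, 17 of 21 gene pairs were correlated, 11 without the 2 farthest livers and 9 without Ogg1-/- chow replicate 1. The causes were not tested. With the replicate block, the HFD genotype comparison kept a count of 3 and the diet comparison in Ogg1-/- livers a count of 1, and no call changed. With 6 livers a group, differences whose interval spans 0 are not shown to be absent.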
